A study of Mus musculus with 8 samples.

Results

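The 37 genes described here encode the machinery of macroautophagy, from the kinase complex that starts an autophagosome to the receptors that select its cargo. They were chosen by name, and all 37 were found among the 27179 genes of the count table and passed the low-count filter that left 15073 genes to test. RNA was sequenced from plasma cells of C57BL/6 mouse bone marrow, sorted in every group as positive for a Blimp1-GFP reporter and for the surface protein CD138. In batch 1, 2 libraries from Blimp1-/- cells (Blimp1KO) stand against 2 wild-type (WT) libraries, and in batch 2, 2 libraries from Xbp1-/- cells (Xbp1KO) stand against 2 other WT libraries. The name under which 1 Blimp1KO library was deposited carries the terms fl and minus, and that of 1 WT library of batch 1 the terms plus and minus. All 4 libraries of batch 2, WT included, carry CreER in theirs, with fl for Xbp1KO and pos for WT, and the labels spell out none of these terms. The sources used here give neither the age of the mice nor whether animals were pooled, and the series calls the replicates biological.

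Macroautophagy encloses cytoplasm, organelles and protein aggregates in a membrane that closes into an autophagosome and fuses with a lysosome, where the content is degraded. The ULK1 kinase complex starts the process, a class III PI3-kinase complex around Beclin 1 marks the membrane, ATG9, ATG2 and WIPI proteins supply and shape it, and a pair of ubiquitin-like conjugation systems attach LC3 and GABARAP proteins to it. Receptors then bind both the cargo and LC3. In mouse plasma cells, Atg5-dependent autophagy is known to limit the endoplasmic reticulum (ER) and antibody output and to support long-lived cells. Blimp1 and XBP1 are transcription factors of the same cells, and XBP1 drives genes of the ER and of secretion.

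Total counts ranged from 44.0 M to 145.4 M per library (M for 1e6), and counts outside immunoglobulin genes from 19.0 M to 72.9 M. The 37 genes took 0.267% to 0.340% of the counts outside immunoglobulin genes, and the lowest count of any of them in any library was 58. Plasma cell markers were high in every library, with summed levels of 32430 to 118800 counts per 1e6 (CPM, on library sizes scaled by TMM). Igj made up most of these sums, at 29070 to 112200 CPM. Of the 8 markers, Mzb1 was called lower in Xbp1KO (log2 fold change -1.96 ± 0.29, adjusted p = 0.012 by edgeR). None was called higher there, with Sdc1 at 0.74 ± 0.22 (adjusted p = 0.098), and none was called in Blimp1KO. Markers of other cells differed between libraries. Neutrophil and monocyte markers summed to 44.2 and 1446 CPM in Xbp1KO replicates 1 and 2, against 14.5 and 605 CPM in WT replicates 3 and 4, and erythroid and megakaryocyte markers to 11.4 and 1211 CPM in Xbp1KO, against 38.9 and 382 CPM in WT of batch 2. Mature B cell markers summed to 360 and 356 CPM in Blimp1KO, against 142 and 121 CPM in WT of batch 1, and dendritic cell markers to 25.4 and 22.0 CPM in Blimp1KO, against 10.7 and 7.31 CPM in WT of batch 1. Ms4a1 made up most of the B cell sums, at 285 and 240 CPM in Blimp1KO. Cr2 of the same list was lower in Blimp1KO (log2 fold change -1.35 ± 0.42, adjusted p = 0.219 by edgeR). In Xbp1KO Cr2 was called higher (2.19 ± 0.42, adjusted p = 0.0273), at 5.68 and 5.55 CPM, against 1.48 and 0.98 CPM in WT. Itgam, a neutrophil and monocyte marker, was called higher there too (1.88 ± 0.32, adjusted p = 0.0187), at 41.7 and 40.8 CPM, against 7.66 and 14.8 CPM. No other marker outside the plasma cell list was called in either knockout. Itgax made up most of the dendritic cell sums in Blimp1KO, at 18.3 and 15.9 CPM, against 5.40 and 2.21 CPM in WT of batch 1. Of that list Flt3 was at -0.14 in Blimp1KO, the others were above 0, and none of the 6 was called by edgeR. Macrophage markers summed to 265 and 360 CPM in Blimp1KO, against 217 and 698 CPM in WT of batch 1. No marker of these lists was at 0 in both libraries of a group. The strand setting of the counting is not given in the sources used here, and annotated exons of 12 of the 37 genes overlap those of another gene, by 10% or more of their bases in 6 of them: Becn1 (43.9%), Atg9a (31.8%), Gabarapl1 (28.3%), Atg4d (19.3%), Uvrag (17.6%) and Sqstm1 (17.3%), whose values are less certain for that reason. Each targeted gene had lower CPM in its own knockout libraries, but neither passed the test. Prdm1, which encodes Blimp1, had 243 and 176 CPM in Blimp1KO, against 301 and 306 CPM in WT of batch 1 (log2 fold change -0.54 ± 0.25, adjusted p = 0.401 by edgeR), and Xbp1 had 1302 and 1105 CPM in Xbp1KO, against 2129 and 2203 CPM in WT of batch 2 (-0.85 ± 0.25, adjusted p = 0.0939). Xbp1 was also lower in Blimp1KO, at 1371 and 1671 CPM, against 3005 and 3008 CPM in WT of batch 1 (-0.98 ± 0.25, adjusted p = 0.141 by edgeR). Prdm1 was higher in Xbp1KO, at 447 and 322 CPM, against 260 and 237 CPM in WT of batch 2 (0.63 ± 0.25, adjusted p = 0.18). Reads of single exons were not analysed here.

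Within WT plasma cells the genes differed widely in level. On the deposited log2 FPKM scale, which accounts for gene length, Sqstm1, the ubiquitin-binding receptor p62, was highest, with a mean of 7.98 over the 4 WT libraries (7.77 to 8.15). Map1lc3b followed at 6.83 (6.75 to 6.87), Gabarap at 6.62 (6.13 to 7.01) and Wipi1 at 6.26 (6.20 to 6.33), and neighbours in this order overlapped from Map1lc3b to Wipi1. Becn1 (5.66 to 5.78), Nbr1 (5.53 to 5.88) and Atg5 (5.29 to 5.95) overlapped one another below them. The lowest were Atg4c, at 1.09 (0.48 to 1.33), and Optn, the receptor optineurin, at 0.33 (0.01 to 0.86).

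Most of the machinery was not called in either knockout, and the calls that were made were all decreases. On simulated data the fit recovered 4% of 2-fold changes in Blimp1KO and 12% in Xbp1KO, so a missing call does not show an unchanged gene. In Blimp1KO, 1 of the 37 genes fell, Wipi1, and none rose, while over all 15073 genes 0.285% were called lower and 0.577% higher. In Xbp1KO, 2 of the 37 fell, Atg13 and Fam134b, and none rose, against 5.06% of all genes called lower and 2.63% called higher, so that the called share of the 37, 5.41%, was close to that of all genes. The median log2 fold change of the 37 was 0.05 in Blimp1KO, against -0.01 over all genes, and -0.13 in Xbp1KO, against 0.08 over all genes. Calls in either direction made up 0.862% of all genes in Blimp1KO and 7.7% in Xbp1KO. A gene is called where its p from the quasi-likelihood test of edgeR, adjusted over all genes tested by the Benjamini-Hochberg method, is below 0.05. At an unadjusted p under 0.05, 6 of the 37 passed in Blimp1KO and 11 in Xbp1KO, against 2093 and 3552 of all 15073 genes.

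More estimates lay below 0 than above it in Xbp1KO. There, 29 of the 37 log2 fold changes were below 0, while 55.8% of those of all genes were above 0. The size of this shift varied with the library left out. Without Xbp1KO replicate 1 the median of the 37 was -0.283, against -0.014 over all genes, with 6 estimates above 0. Without Xbp1KO replicate 2 it was -0.063, against 0.061, with 12 above 0, and without WT replicate 3 it was -0.109, against 0.099, with 13 above 0. For 18 of the 37 (48.6%) both Xbp1KO libraries lay below both WT libraries in CPM, where 25.8% of all genes did so. Only 5 (13.5%) lay above in both libraries, against 31.8% of all genes. In Blimp1KO, 17 of the 37 estimates were below 0, and 48.8% of those of all genes were above 0. Both libraries lay below both WT libraries for 8 genes (21.6%, against 22.1% of all genes) and above for 6 (16.2%, against 20.9%). These shares are descriptions and carry no test. In bulk libraries such as these, fewer cells of a type and less RNA per cell cannot be told apart.

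**Figure D1:**
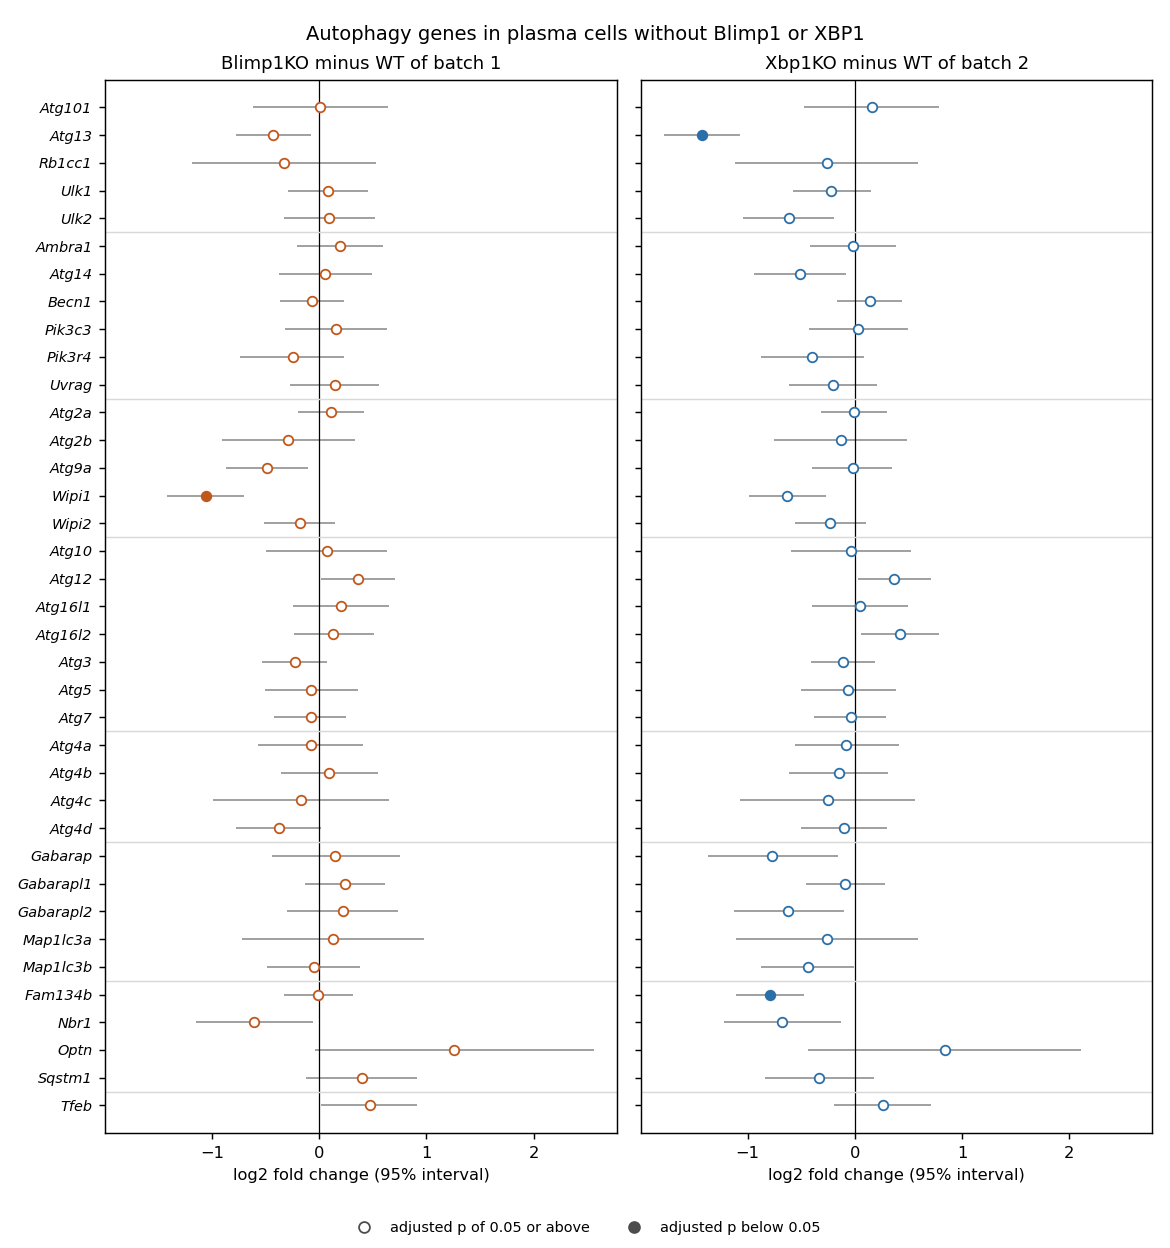
Log2 fold change of the 37 autophagy genes (points) with 95% intervals (lines) in Blimp1KO minus WT of batch 1 and in Xbp1KO minus WT of batch 2, 2 libraries per group, ordered by role from the ULK1 complex at the top to Tfeb. Filled points mark adjusted p below 0.05: Wipi1 in Blimp1KO, at -1.06, and Atg13 and Fam134b in Xbp1KO, at -1.43 and -0.79.

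Wipi1 encodes a WIPI protein, which reads PI3-phosphate on the forming autophagosome. It had 32.0 and 26.1 CPM in Blimp1KO, against 63.3 and 57.8 CPM in WT of batch 1. It had 35.8 and 37.2 CPM in Xbp1KO, against 55.2 and 57.5 CPM in WT of batch 2. All 4 knockout libraries thus lay below all 4 WT libraries. The log2 fold change was -1.06 ± 0.15 in Blimp1KO (SE, n = 2 per group, adjusted p = 0.0382), or 2.08-fold lower, and -0.63 ± 0.15 in Xbp1KO (adjusted p = 0.0548), where it missed the threshold. The effects of the 2 knockouts were not shown to differ (difference -0.43, adjusted p = 0.397). The Blimp1KO call was lost without WT replicate 1 (adjusted p = 0.305), WT replicate 2 (0.251), WT replicate 3 (0.117), WT replicate 4 (0.114), Xbp1KO replicate 1 (0.0724) or Xbp1KO replicate 2 (0.0687), and in batch 1 alone (0.154), with estimates from -1.12 to -0.99 there. In Xbp1KO, Wipi1 passed the threshold by DESeq2 (adjusted p = 0.00591), by limma-voom (0.0488) and in batch 2 alone (0.0301). Of the alternatives, it passed there under 10 and missed the threshold under 9.

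Atg13 encodes the regulatory subunit that ties the ULK kinases to the initiation complex. It had 18.3 and 19.9 CPM in Xbp1KO, against 54.8 and 48.0 CPM in WT of batch 2. Both Xbp1KO libraries lay below every other library, and the log2 fold change was -1.43 ± 0.15 (adjusted p = 0.00386), or 2.69-fold lower. It had 43.5 and 38.2 CPM in Blimp1KO, against 56.8 and 53.1 CPM in WT of batch 1, a log2 fold change of -0.43 ± 0.15 that did not pass (adjusted p = 0.264). The Xbp1KO call held with each single library left out, with adjusted p from 0.00212 to 0.0408. The difference between the knockouts was 1.00 (adjusted p = 0.0691). Of the 37 genes it had the smallest p in that contrast.

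Fam134b, also named Retreg1, encodes an ER-resident receptor that brings sheets of the ER into autophagosomes. It had 20.7 and 19.4 CPM in Xbp1KO, against 34.5 and 34.8 CPM in WT of batch 2, with a log2 fold change of -0.79 ± 0.13 (adjusted p = 0.0190), or 1.73-fold lower. It had 33.5 and 30.7 CPM in Blimp1KO, against 34.4 and 30.3 CPM in WT of batch 1, where the libraries of the groups overlapped and the log2 fold change was -0.01 ± 0.13 (adjusted p = 0.995). The difference between the effects, 0.78, did not pass (adjusted p = 0.101). The Xbp1KO call was lost without WT replicate 1 (adjusted p = 0.0568), WT replicate 2 (0.0557), WT replicate 3 (0.122), WT replicate 4 (0.123), Xbp1KO replicate 1 (0.078) or Xbp1KO replicate 2 (0.149), with estimates from -0.92 to -0.72.

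The estimates for both genes in Xbp1KO were also computed without the batch 2 libraries rich in myeloid and erythroid markers. With Xbp1KO replicate 2 and WT replicate 4 both left out, an alternative chosen after seeing the data, the log2 fold change was -1.59 for Atg13 (adjusted p = 0.112) and -0.74 for Fam134b (adjusted p = 0.353). No call among the 37 remained there, with 1 library per group in batch 2 and 59 genes called in all.

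**Figure D2:**
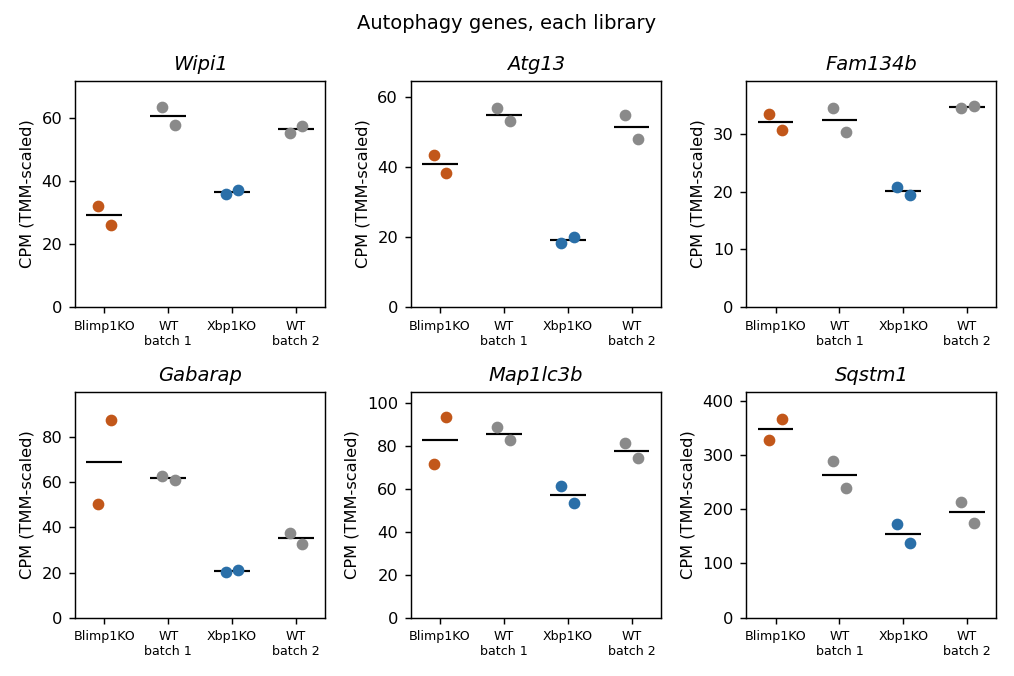
Level of 6 autophagy genes in each library, in CPM on TMM-scaled library sizes, with points for the 2 libraries of a group and a line at their mean. Wipi1 lies lower in all 4 knockout libraries than in the WT libraries, Atg13 and Fam134b lie lowest in Xbp1KO, at 18.3 to 20.7 CPM, and the Blimp1KO libraries lie apart for Gabarap, at 50.2 and 87.5 CPM.

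The upstream sequences of the 3 called genes are shown because these carried the differences. They are the 250 bases before a RefSeq start site in GRCm38.p6, written on the strand of the gene with motif matches in capitals. Wipi1 is at chr11:109611390-109611639 on the minus strand, Atg13 at chr2:91710593-91710842 on the minus strand, and the fourth of 4 Fam134b start sites at chr15:25942429-25942678 on the plus strand.
Wipi1: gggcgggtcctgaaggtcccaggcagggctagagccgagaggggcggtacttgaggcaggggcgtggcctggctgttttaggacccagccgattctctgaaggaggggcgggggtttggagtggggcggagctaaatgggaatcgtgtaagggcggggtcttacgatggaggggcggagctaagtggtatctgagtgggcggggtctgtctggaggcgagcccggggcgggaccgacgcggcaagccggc
Atg13: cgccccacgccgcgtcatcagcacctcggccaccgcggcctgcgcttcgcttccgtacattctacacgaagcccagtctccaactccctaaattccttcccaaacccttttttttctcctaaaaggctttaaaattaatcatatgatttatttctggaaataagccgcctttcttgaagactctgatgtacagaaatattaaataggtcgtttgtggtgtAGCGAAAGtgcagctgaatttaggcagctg
Fam134b: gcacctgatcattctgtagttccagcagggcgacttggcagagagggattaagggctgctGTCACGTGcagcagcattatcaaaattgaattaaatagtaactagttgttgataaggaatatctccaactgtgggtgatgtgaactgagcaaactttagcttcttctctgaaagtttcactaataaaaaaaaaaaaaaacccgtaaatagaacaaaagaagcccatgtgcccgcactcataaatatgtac
The Atg13 window held AGNGAAAG, the core read by Blimp1, 30 bases before the start site. The fourth Fam134b window held GTCACGTG, which contains part of the CLEAR element read by TFEB, 190 bases before the start site, and the shorter E-box CACGTG lies inside it. The other 3 Fam134b windows and that of Wipi1 held none of the motifs searched on both strands.

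Windows were available for 31 of the 37 genes (39 windows). AGNGAAAG was in those of 3 genes (Atg13, Nbr1 and Uvrag) and in 7.3% of all 32851 mouse windows. CACGTG was in those of 4 (Atg3, Atg5, Atg7 and Fam134b) and in 6.02% of all windows, and GTCACGTG in those of 3 (Atg3, Atg7 and Fam134b) and in 1.85%. TGACGTGG, a core read by XBP1, was in none of the 39 windows and in 0.563% of all. The ER stress element ERSE was in none, against 0.113% of all, and TGATGNAA, read by ATF4, was in none, against 3.45%. A match or its absence says only which letters these windows hold.

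Among the other genes of the ULK1 complex, Ulk2, a kinase related to Ulk1, had 13.0 and 12.9 CPM in Xbp1KO, against 20.5 and 19.2 CPM in WT of batch 2. Its log2 fold change there was -0.61 ± 0.18 (adjusted p = 0.0930). The groups did not overlap, and Ulk2 passed by DESeq2 (adjusted p = 0.0478) and in batch 2 alone (0.0323). Of the alternatives, it passed under 4 and missed the threshold under 15, limma-voom among the latter. Ulk1 was at -0.22 and Rb1cc1, the scaffold FIP200, at -0.26 in Xbp1KO, and Atg101, the partner of ATG13, at 0.16. In Blimp1KO the 4 genes beside Atg13 were between -0.33 and 0.09. Rb1cc1 levels differed by batch, from 10.2 to 24.1 CPM in batch 1 and from 43.0 to 62.1 CPM in batch 2.

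None of the 6 genes of the PI3-kinase complex was called in either knockout by edgeR or by DESeq2. Becn1, which encodes Beclin 1, had 44.1 CPM in both Blimp1KO libraries, against 47.3 and 45.5 CPM in WT of batch 1. It had 47.4 and 48.4 CPM in Xbp1KO, against 42.4 and 44.8 CPM in WT of batch 2. Its 95% intervals ran from -0.37 to 0.23 in Blimp1KO and from -0.17 to 0.44 in Xbp1KO. Atg14, which directs the complex to autophagosome formation, had 8.07 and 7.05 CPM in Xbp1KO, against 9.66 and 11.9 CPM in WT of batch 2, a log2 fold change of -0.51 ± 0.18 (adjusted p = 0.144) and the only one of the 6 with an unadjusted p under 0.05. Pik3r4, Uvrag, Ambra1 and Pik3c3 lay between -0.25 and 0.19 in Blimp1KO and between -0.40 and 0.03 in Xbp1KO.

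Beside Wipi1, the genes of membrane supply included Atg9a, which encodes the membrane-spanning scramblase ATG9A. It had 21.8 and 19.9 CPM in Blimp1KO, against 31.2 and 27.5 CPM in WT of batch 1, a log2 fold change of -0.49 ± 0.16 (adjusted p = 0.236). In Xbp1KO it was at -0.02. Wipi2, which recruits ATG16L1, was below WT in both libraries of both knockouts, at -0.18 in Blimp1KO and -0.23 in Xbp1KO, and neither passed (adjusted p = 0.672 and 0.392). The lipid transfer genes Atg2a and Atg2b lay between -0.29 and 0.11.

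None of the 7 conjugation genes was called in either knockout by edgeR or by DESeq2, with 1 at an unadjusted p under 0.05 in Blimp1KO and 2 in Xbp1KO. Atg5, whose product joins ATG12, had 53.6 and 61.9 CPM in Blimp1KO, against 63.3 and 58.5 CPM in WT of batch 1. It had 45.2 and 37.3 CPM in Xbp1KO, against 48.2 and 37.8 CPM in WT of batch 2, and the groups overlapped in both batches. Its log2 fold changes were -0.08 ± 0.19 and -0.06 ± 0.19, with 95% intervals from -0.51 to 0.36 in Blimp1KO and from -0.50 to 0.38 in Xbp1KO. Atg7, which encodes the E1-like enzyme of both systems, was at -0.08 in Blimp1KO and -0.04 in Xbp1KO, and Atg3, the E2-like enzyme for LC3, at -0.23 and -0.11. Atg12 was higher in both libraries of both knockouts, at 16.6 and 19.6 CPM in Blimp1KO, against 13.6 and 14.6 CPM in WT of batch 1. In Xbp1KO it had 22.0 and 19.5 CPM, against 16.1 and 15.9 CPM in WT of batch 2. Its log2 fold changes of 0.36 ± 0.15 and 0.37 ± 0.14 did not pass (adjusted p = 0.336 in Blimp1KO and 0.178 in Xbp1KO). Atg16l2, a homologue of Atg16l1, was at 0.42 in Xbp1KO (adjusted p = 0.157), and Atg10 and Atg16l1 lay between -0.04 and 0.20. The 4 ATG4 proteases, which process LC3 and GABARAP, lay between -0.38 and 0.09 in Blimp1KO and between -0.25 and -0.08 in Xbp1KO, with none called by edgeR or DESeq2 and none at an unadjusted p under 0.05.

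The 5 genes of the LC3 and GABARAP family, which coat the autophagosome and bind receptors, all had negative estimates in Xbp1KO, with a median log2 fold change of -0.44, and none was called by edgeR. Gabarap had 20.2 and 21.1 CPM in Xbp1KO, against 37.6 and 32.5 CPM in WT of batch 2 (log2 fold change -0.77 ± 0.26, adjusted p = 0.124). Gabarapl2 had 11.8 and 11.6 CPM in Xbp1KO, against 19.6 and 16.4 CPM in WT of batch 2 (-0.62 ± 0.22, adjusted p = 0.141). Map1lc3b had 61.3 and 53.5 CPM in Xbp1KO, against 81.6 and 74.2 CPM in WT of batch 2 (-0.44 ± 0.18, adjusted p = 0.206). In these 3 genes the groups did not overlap and the unadjusted p was under 0.05, and DESeq2 called Gabarap (adjusted p = 0.0458). Of the alternatives, Gabarap passed under 4 and missed the threshold under 15. Map1lc3a and Gabarapl1 were at -0.26 and -0.09. In Blimp1KO the 5 estimates lay between -0.05 and 0.24, and none had an unadjusted p under 0.05 or was called by DESeq2. No difference between the knockouts passed in this family, where the difference was 0.84 for Gabarapl2 (adjusted p = 0.242).

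In Blimp1KO the values of this family depended on the library. Gabarap had 50.2 CPM in replicate 1 and 87.5 CPM in replicate 2, and Map1lc3a 8.80 and 19.5 CPM. The log2 ratio of Blimp1KO replicate 2 over replicate 1 fell with gene length, with a Spearman rho over genes of -0.74 for the 37 genes and -0.69 for 9161 genes, and reached from 1.15 for Map1lc3a, the shortest of the 37, to -1.24 for Rb1cc1. Between the WT libraries of batch 1 the rho over the 37 genes was -0.10, between the Xbp1KO libraries -0.03 and between the WT libraries of batch 2 0.23. These rho values are over genes of the same library pairs and are given as descriptions. The part of this length pattern in the Blimp1KO estimates was not tested. Without Blimp1KO replicate 1, the median log2 fold change of the 37 genes in Blimp1KO was 0.025, and without replicate 2 it was 0.006, and Wipi1 was called in both cases.

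**Figure D3:**
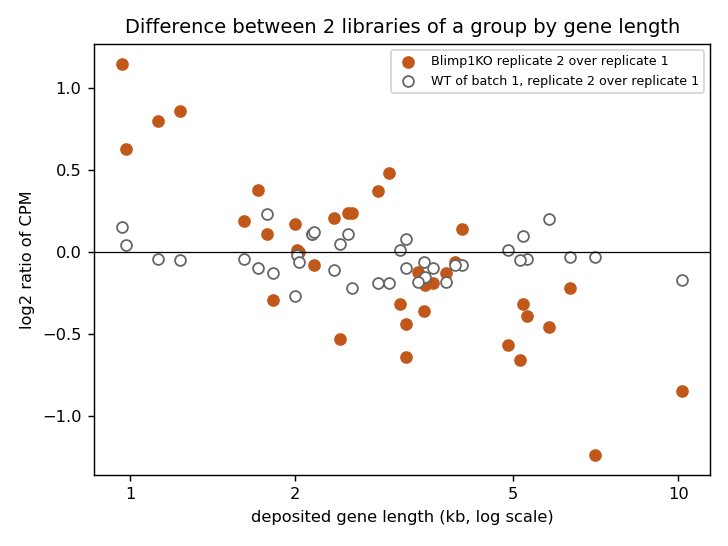
Log2 ratio of CPM between the 2 libraries of a group for each of the 37 autophagy genes, against the deposited gene length in kilobases on a log axis. Filled points are Blimp1KO, whose short genes lie up to 1.15 above 0 and long genes down to -1.24, and open points are WT of batch 1, which lie between -0.27 and 0.23.

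Of the cargo receptors, Sqstm1 had the highest CPM of the 37 genes in every library. It had 327 and 367 CPM in Blimp1KO, against 288 and 239 CPM in WT of batch 1. It had 172 and 137 CPM in Xbp1KO, against 213 and 175 CPM in WT of batch 2. Both Blimp1KO libraries lay above WT and both Xbp1KO libraries below it, but the log2 fold changes of 0.40 ± 0.22 in Blimp1KO (adjusted p = 0.497) and -0.33 ± 0.22 in Xbp1KO (adjusted p = 0.425) did not pass, and neither did their difference of 0.73 (adjusted p = 0.313). Nbr1, a receptor for ubiquitinated cargo, had 83.8 and 53.0 CPM in Blimp1KO, against 106 and 102 CPM in WT of batch 1. It had 81.3 and 71.7 CPM in Xbp1KO, against 123 and 122 CPM in WT of batch 2. Its log2 fold changes were -0.61 ± 0.23 in Blimp1KO (adjusted p = 0.306) and -0.68 ± 0.23 in Xbp1KO (adjusted p = 0.132), and DESeq2 called it in Xbp1KO (adjusted p = 0.0391). Of the alternatives, Nbr1 passed in Xbp1KO under 4 and missed the threshold under 15. Optn had 3.80 and 2.63 CPM in Blimp1KO, against 1.31 and 1.36 CPM in WT of batch 1 (log2 fold change 1.26 ± 0.55, adjusted p = 0.376). In batch 2 it was higher in the library of each group that was rich in myeloid markers, at 1.67 and 4.28 CPM in Xbp1KO and 1.1 and 2.23 CPM in WT replicates 3 and 4, and the part of those cells in its level was not tested. Tfeb, which encodes the transcription factor of lysosome and autophagy genes, had 20.5 and 26.5 CPM in Blimp1KO, against 18.1 and 15.9 CPM in WT of batch 1 (0.47 ± 0.19, adjusted p = 0.341). It was at 0.26 in Xbp1KO (adjusted p = 0.472). The part of the higher mature B cell markers in the Blimp1KO values was not tested, and none of the 7 markers was itself called there by edgeR.

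None of the 37 genes passed the test of the difference between the knockouts by edgeR, where 1.68% of all genes did (1.17% higher and 0.511% lower in the Blimp1KO effect). At an unadjusted p under 0.05, 6 passed, as did 2399 of all 15073 genes. DESeq2 called Atg13 and Fam134b (1143 of all genes), and limma on the deposited log2 FPKM called Atg13 (308 of all genes). The median difference, Blimp1KO effect minus Xbp1KO effect, was 0.12 over the 37 genes and -0.04 over all genes.

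Further genes of the pathway were taken from 4 lists drawn up by function, with receptors that recruit ER and other cargo among them. The lists were chosen with earlier results of these data known. Their shares of called genes, set beside those of all genes, are descriptions and carry no test. In Xbp1KO, 5 of 19 tested further receptors of selective autophagy fell and 1 rose, against 5.06% and 2.63% of all genes, and in Blimp1KO none was called by edgeR or DESeq2, with 2 at an unadjusted p under 0.05 by edgeR. Tex264, an ER-resident receptor, had 4.75 and 4.69 CPM in Xbp1KO, against 29.1 and 26.5 CPM in WT of batch 2, a log2 fold change of -2.56 ± 0.22 (adjusted p = 0.00241). Fam134c, a paralogue of Fam134b, had 11.6 and 15.5 CPM in Xbp1KO, against 55.7 and 53.0 CPM in WT of batch 2 (-2.01 ± 0.20, adjusted p = 0.00326). Both kept their calls with any single library left out.

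In Blimp1KO, Tex264 had 35.9 and 54.3 CPM, against 53.6 and 48.5 CPM in WT of batch 1 (log2 fold change -0.18 ± 0.20, adjusted p = 0.803). Fam134c had 87.4 and 106 CPM in Blimp1KO, against 71.2 and 72.2 CPM in WT of batch 1 (0.43 ± 0.19, adjusted p = 0.375). The effects of the knockouts differed for Tex264 by 2.38 (adjusted p = 0.0214) and for Fam134c by 2.44 (adjusted p = 0.0141). The remaining falls in Xbp1KO were those of Cdk5rap3, which works with the UFM1 system at the ER (-0.94 ± 0.19, adjusted p = 0.0339), Tollip, an adaptor with a ubiquitin-binding domain (-0.62 ± 0.12, adjusted p = 0.0314), and Fam134a, the third paralogue (-0.80 ± 0.17, adjusted p = 0.0380), while Nufip1, described as a ribosome receptor in human cells, rose (0.85 ± 0.18, adjusted p = 0.0381). Fam134a and Nufip1 are named after their values were seen. These 4 calls were lost when any WT or Xbp1KO library was left out, with adjusted p from 0.0872 to 0.223. All 3 Fam134 genes thus had both Xbp1KO libraries below both WT libraries.

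**Figure D4:**
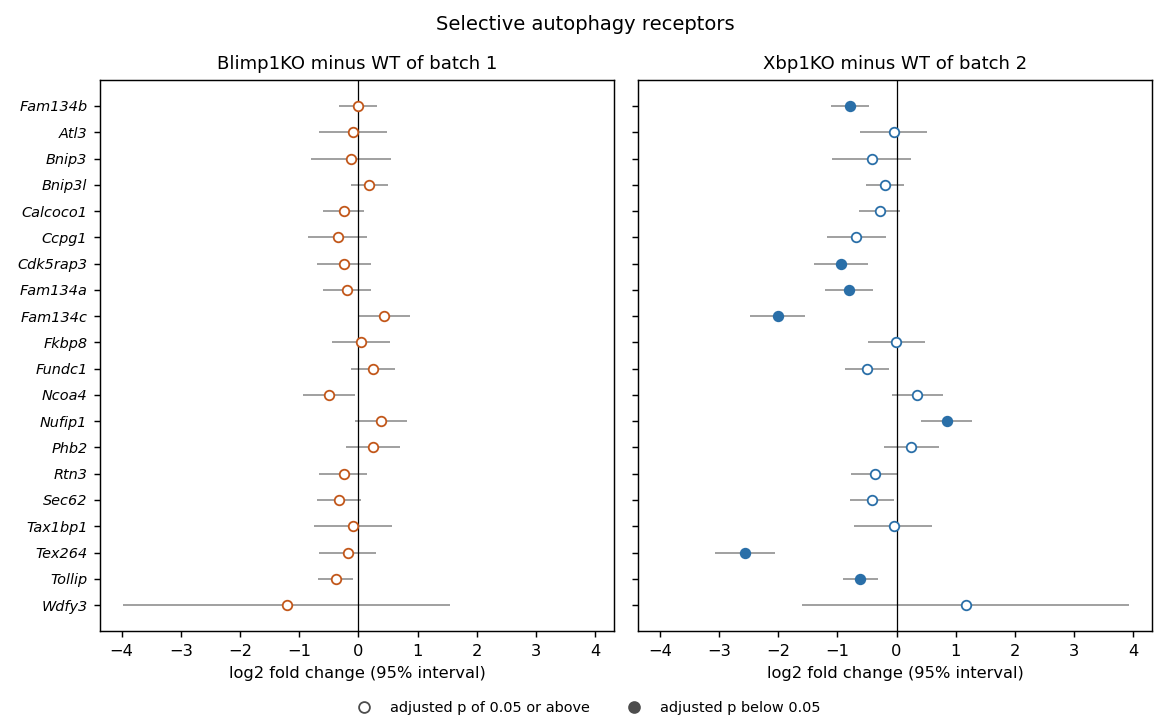
Log2 fold change (points) and 95% interval (lines) of Fam134b and of 19 further receptors of selective autophagy in Blimp1KO minus WT of batch 1 and in Xbp1KO minus WT of batch 2. Filled points mark adjusted p below 0.05, of which there are none in Blimp1KO and 7 in Xbp1KO, the lowest being Tex264 at -2.56 and Fam134c at -2.01.

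Of 33 tested further genes of autophagosome formation and fusion, 1 rose in Blimp1KO, where 0.577% of all genes were called higher, and none was called in Xbp1KO by edgeR, with 3 there at an unadjusted p under 0.05 and 1, Sh3glb1, called by DESeq2. In Blimp1KO, DESeq2 called 2 higher (Rubcn and Snap29) and 2 lower (Trp53inp1 and Trp53inp2). Over all 15073 genes DESeq2 called 451 higher and 361 lower in Blimp1KO, and 875 higher and 1301 lower in Xbp1KO. The gene that rose by edgeR was Rubcn, which encodes Rubicon, a negative regulator of the PI3-kinase complex and of autophagosome maturation. It had 59.0 and 42.2 CPM in Blimp1KO, against 17.1 and 16.6 CPM in WT of batch 1, with a log2 fold change of 1.59 ± 0.22 (adjusted p = 0.0349). It had 17.0 and 17.6 CPM in Xbp1KO, against 19.3 and 14.2 CPM in WT of batch 2 (0.05 ± 0.21). The Blimp1KO call was lost without WT replicate 1 (adjusted p = 0.294), 2 (0.264), 3 (0.0679) or 4 (0.0632) and in batch 1 alone (0.0937). In Xbp1KO the smallest p of the list were those of Trp53inp2, which binds LC3 (-0.54 ± 0.17, adjusted p = 0.0999), and Sh3glb1, which binds Beclin 1 through UVRAG (-0.40 ± 0.15, adjusted p = 0.156).

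Of 51 lysosomal and acidification genes, 1 fell in Blimp1KO by edgeR, where 0.285% of all genes were called lower, and in Xbp1KO 3 rose and 4 fell, against 2.63% and 5.06% of all genes. DESeq2 called 4 higher and 3 lower in Blimp1KO, and 7 higher and 6 lower in Xbp1KO. Over all 15073 genes it called 451 higher and 361 lower in Blimp1KO, and 875 higher and 1301 lower in Xbp1KO. Atp6v0a1, a subunit of the proton pump, had 103 and 108 CPM in Blimp1KO, against 248 and 226 CPM in WT of batch 1 (log2 fold change -1.17 ± 0.17, adjusted p = 0.0386), a call lost with any single library left out (adjusted p from 0.0512 to 0.337). Lamp1, an abundant protein of the lysosomal membrane, had 35.0 and 55.6 CPM in Xbp1KO, against 184 and 170 CPM in WT of batch 2 (-1.97 ± 0.25, adjusted p = 0.00738), a call lost without WT replicate 3 (0.0522). The cathepsin gene Ctsh fell in Xbp1KO (-1.49 ± 0.29, adjusted p = 0.0291), and Ctsz (1.53 ± 0.23, adjusted p = 0.0131) and Ctsa (1.00 ± 0.19, adjusted p = 0.0262) rose. With single libraries left out the adjusted p of these 3 reached 0.136, 0.109 and 0.166. Lysosomal genes of Xbp1KO thus moved in both directions, with a list median of -0.02, against 0.08 over all genes.

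Among 19 upstream regulators of autophagy, none was called by edgeR in either knockout, with 2 at an unadjusted p under 0.05 in Blimp1KO and 5 in Xbp1KO, and DESeq2 called Atf4 in Blimp1KO and Mitf in Xbp1KO. Atf4, a transcription factor of the stress response, had 97.5 and 74.7 CPM in Blimp1KO, against 140 and 136 CPM in WT of batch 1 (log2 fold change -0.68 ± 0.18, adjusted p = 0.163). Foxo3, a transcription factor of autophagy genes, was at -0.87 ± 0.34 there (adjusted p = 0.318). In Xbp1KO, Mitf, a relative of Tfeb, was at -1.41 ± 0.43 (adjusted p = 0.102) and Prkag2, a subunit of the energy sensor AMPK, at 0.61 ± 0.20 (adjusted p = 0.126). With Xbp1KO replicate 2 and WT replicate 4 left out, no gene of any of these 4 lists was called in either knockout by edgeR, and the log2 fold changes in Xbp1KO were -2.63 for Tex264 (adjusted p = 0.0754), -2.28 for Fam134c (0.0651) and -2.40 for Lamp1 (0.0651).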

How the data were processed

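The authors deposited a table of unnormalized counts by Entrez identifier covering the 8 libraries, and log2 FPKM values (counts scaled by gene length and depth, then logged) for 13945 genes in a file per sample. Subread, featureCounts, limma and the build GRCm38 are named without versions in the submitters' processing notes; the strand setting, gene filter and aligner settings are not given in the sources used here. In batch 1 the deposited FPKM files match the counts of the other replicate of their group (Pearson r 0.99 to 0.996 over genes, against 0.482 to 0.554 with the same number), so FPKM served only for group values and ranges and for the limma alternative, which uses group membership alone.

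Counts were fitted with edgeR 4.0.16 in R 4.3.3: filterByExpr at a minimum count of 10, TMM factors from 0.564 to 2.11, a mean for each of 4 groups of 2 libraries, and the quasi-likelihood test (4 residual and 3.06 prior degrees of freedom) with Benjamini-Hochberg adjustment over 15073 genes and a threshold of 0.05. Standard errors are the absolute log2 fold change over the square root of F, and 95% intervals use a t quantile of 2.36. The difference of effects is the Blimp1KO change minus the Xbp1KO change. The median SE of the 37 genes was 0.18, so the median 95% interval reached 0.43 to either side. The fit was tested on simulated data, with 100 genes changed 2-fold and 100 changed 4-fold in each comparison. It recovered 4% of the 2-fold changes in Blimp1KO and 12% in Xbp1KO. Of the 4-fold changes it recovered 61% in Blimp1KO and 80% in Xbp1KO. False calls were at 4.41% in Blimp1KO and 7.07% in Xbp1KO. The changed genes were drawn at random from expressed genes, so these rates are not those of the 37 genes. A missing call alone does not exclude a 2-fold change, and the 95% interval of each gene gives its own limit. For Becn1, which was not called, it ran from -0.37 to 0.23 in Blimp1KO and from -0.17 to 0.44 in Xbp1KO. DESeq2 1.42.0 and limma 3.58.1 served as alternatives.

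The 37 genes and all gene and marker lists were chosen with earlier results of these data known. Genes named are the called ones, up to 4 further of the 37 per contrast with the smallest p, the highest gene of each role, and up to 4 called genes per further list (where a list had none, up to 2 are given by value). Exon overlaps come from GENCODE vM21, and promoters and symbols missing from the files from RefSeq GRCm38.p6.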

Additional observations from a re-analysis of the deposited data

Results flagged for a closer look

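Tex264, Fam134c, Lamp1, Ctsh and Gusb, from the further lists of the pathway, changed differently in the 2 knockouts, by edgeR's test of the Blimp1KO effect minus the Xbp1KO effect. For Tex264 the difference was 2.38 on the log2 scale (adjusted p = 0.0214) and for Fam134c 2.44 (adjusted p = 0.0141), both ER-resident receptors that were lower in Xbp1KO. For Lamp1 it was 2.39 (adjusted p = 0.0286), with 356 and 388 CPM in Blimp1KO, against 272 and 284 CPM in WT of batch 1 (log2 fold change 0.42 ± 0.24, adjusted p = 0.525). For Ctsh it was 3.17 (adjusted p = 0.0232), with 214 and 333 CPM in Blimp1KO, against 84.3 and 86.2 CPM in WT of batch 1 (1.68 ± 0.29, adjusted p = 0.0573), and 11.7 and 18.7 CPM in Xbp1KO, against 43.0 and 42.1 CPM in WT of batch 2.

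Gusb, a lysosomal glucuronidase, went the other way, with a difference of -1.92 (adjusted p = 0.0331). It had 64.4 and 84.0 CPM in Blimp1KO, against 123 and 155 CPM in WT of batch 1 (log2 fold change -0.90 ± 0.21, adjusted p = 0.114), and 197 and 175 CPM in Xbp1KO, against 88.2 and 96.5 CPM in WT of batch 2 (1.01 ± 0.21, adjusted p = 0.0341). With single libraries left out these differences kept their sign, and each call was lost when any single WT library was left out, the adjusted p reaching 0.141 for Tex264, 0.118 for Fam134c, 0.164 for Lamp1, 0.148 for Ctsh and 0.182 for Gusb.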

How the results depend on the processing

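Of the values recomputed under the alternatives, 654 kept their direction and side of the threshold, 136 fell short of it, 32 newly passed it and 9 changed sign, and the cause was not tested. All 9 are Fam134b in Blimp1KO, which is -0.01 in the main analysis: 0.01 under DESeq2 and under its size factors in edgeR, 0.02 with immunoglobulin genes removed, 0.03 in batch 1 alone, 0.04 with the 2 batch 2 libraries rich in myeloid markers left out, and -0.09 to 0.09 with single libraries left out.

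In Blimp1KO, 1 of the 37 genes was called, against 0 in batch 1 alone and 0 with those 2 libraries left out, and 0 to 1 with single libraries left out. Over all genes 130 were called, against 20 in batch 1 alone, 31 with the 2 libraries left out, 83 by limma-voom, 269 against all 4 WT libraries pooled, 517 with no filter and 812 by DESeq2, and 0 to 688 with single libraries left out. In Xbp1KO, 2 of the 37 were called, against 6 by DESeq2 and 6 in batch 2 alone (Wipi1, Ulk2, Gabarap and Nbr1 in addition), 0 with the 2 libraries left out and 1 to 7 with single libraries left out. Over all genes 1160 were called, against 2176 by DESeq2, 59 with the 2 libraries left out and 225 to 2123 with single libraries left out. For the difference of effects, 0 of the 37 were called, against 2 by DESeq2, 1 by limma on the deposited log2 FPKM and 0 to 2 with single libraries left out. Over all genes 253 were called, against 763 with no filter, 1143 by DESeq2, 2 with the 2 libraries left out and 3 to 598 with single libraries left out. In batch 2 alone, where 6 of the 37 were called in Xbp1KO, 1491 of the 14882 genes tested were called. Leaving out a library leaves 1 in its group, whose spread is then assumed to equal that of the other groups.

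The replicate numbers of batch 1 do not establish pairs (2 pairs, correlation 0.218 of the deviations), and 2 pairs are too few to decide whether the samples were paired. With the number as a replicate block, 1 of the 37 genes was called in Blimp1KO (89 of all genes), 3 in Xbp1KO (1021), where the block bears on the shared spread alone, and 0 in the difference (178). By the labels Xbp1KO and WT of batch 2 share no number, but the names of their deposited files carry 1 and 2 in both groups (2 pairs, correlation 0.513), which does not establish pairs. With these numbers as a replicate block too, chosen after seeing the data, 0 of the 37 genes were called in Blimp1KO (164 of all genes; Wipi1 at -1.07, adjusted p = 0.0502), 2 in Xbp1KO (1169) and 0 in the difference (386). The median 95% interval of the 37 genes reached 0.43 to either side.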
